A study of Mus musculus with 16 samples.

Results

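The genes described here are 9 genes of the osteoblast, the cell that builds bone: the transcription factors Runx2 and Sp7, the mineralization enzymes Alpl and Phospho1, the osteocalcin genes Bglap and Bglap2, and the matrix protein genes Ibsp, Spp1 and Sparc. They were taken from the tables by gene symbol, from a list drawn up with earlier results of these data known. All 9 were among the 38933 genes of the cortical bone table, and 5 of the 9 (Runx2, Alpl, Spp1, Phospho1 and Sparc) were among the 21011 genes of the skeletal muscle table. Bulk RNA-seq was available for 16 libraries from female C57BL/6 mice that were 18 months old at the start of treatment, with 4 BAY-treated and 4 VEH-treated mice in each tissue. BAY2416964 (BAY) is an orally given antagonist of the aryl hydrocarbon receptor (AhR), a ligand-activated transcription factor, and was given by gavage for 8 weeks, 5 days each week, at a dose of 30 mg/kg, whereas VEH-treated mice received its carrier of ethanol, Solutol and water. The comparison asks how AhR antagonism in aged mice affected RNA levels in bone and muscle. Cortical bone was the shaft that remained after marrow stromal cells had been harvested, digested with collagenase, and skeletal muscle was the tibialis anterior (TA). No allele was altered in any group.

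Osteoblasts arise from mesenchymal progenitors. Runx2 commits progenitors to the lineage, and Sp7 (osterix) acts downstream of it. Osteoblasts secrete type I collagen and then a set of acidic and calcium-binding proteins: bone sialoprotein (Ibsp) and osteopontin (Spp1) bind mineral and cells, osteonectin (Sparc) binds collagen and calcium, and osteocalcin is a vitamin K-dependent protein of mature osteoblasts. Tissue-nonspecific alkaline phosphatase (Alpl) degrades pyrophosphate, an inhibitor of mineral growth, and Phospho1 releases phosphate inside matrix vesicles.

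Values were CPM, counts scaled to a common library total, recovered from deposited log2 values. The read count behind each value was recovered from the step between low values, and 930306 to 6951928 reads were counted on genes per cortical bone library, against 6131894 to 9262371 in skeletal muscle. A value of 3 reads, taken as the floor, was 0.432 to 3.22 CPM in cortical bone and 0.324 to 0.489 CPM in skeletal muscle, and these limits cover counting error only. Several cortical bone libraries stood apart from the others. BAY replicate 4 and VEH replicate 2 had the fewest reads and the highest levels of olfactory receptor genes, which serve the nose and are taken here as a level for genes without a known part in bone. The median olfactory receptor gene had 6.94 CPM per kb of exon in VEH replicate 2 and 8.65 in BAY replicate 4, against 0.0506 in VEH replicate 1, 1.26 and 5.41 in VEH replicates 3 and 4, and 2.34 to 2.64 in the other BAY replicates. The 12 skeletal muscle fibre genes summed to 9066 CPM in VEH replicate 1, 38261 in BAY replicate 1 and 42085 in BAY replicate 2, to 1460 in BAY replicate 3, and to 39.3 to 257 in the other 4 libraries. BAY replicates 1 and 2 were also the most alike pair within a group, with a chi-square per degree of freedom between them of 4.03. The other pairs within a group had 13.4 to 182. The cause of this likeness was not tested. Genes of bone were detected in every library. Col1a1, the main type I collagen chain, had 782 to 16601 CPM, and Sost, an osteocyte gene, had 14.1 to 898 CPM. In VEH replicate 1 and BAY replicates 1 and 2 the muscle fibre sum was above Col1a1 (4028, 1145 and 942 CPM). Sost was not set against the olfactory receptor level.

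**Figure D1:**
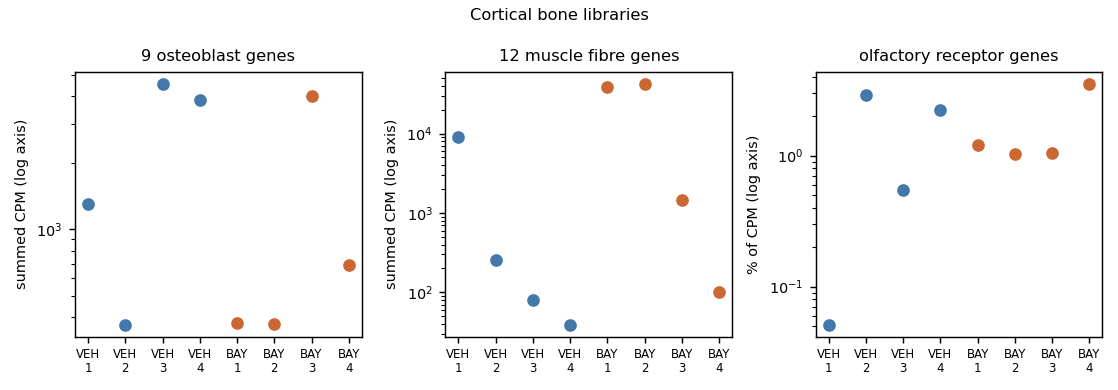
Summed CPM of the 9 osteoblast genes, summed CPM of 12 skeletal muscle fibre genes and the percentage of CPM on olfactory receptor genes (log axes) in each of the 8 cortical bone libraries, 4 VEH (blue) and 4 BAY (orange). The osteoblast sum was highest in VEH replicate 3 (4546), BAY replicate 3 (4005) and VEH replicate 4 (3862), while the muscle fibre sum was highest in BAY replicates 1 and 2.

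On mm39, Bglap lies on chromosome 3 at 88290808 to 88291771 and Bglap2 beside it at 88285043 to 88286006, both on the minus strand. The coding sequences of the pair are shown because they differ at few bases, and the other exon bases were not compared. Over 285 coding bases they differed at 4 positions, which are in capitals below, and were 98.6% identical, with an identical run of 241 bases. Spliced over 4 exons each and read from the genome, they are as follows.
Bglap: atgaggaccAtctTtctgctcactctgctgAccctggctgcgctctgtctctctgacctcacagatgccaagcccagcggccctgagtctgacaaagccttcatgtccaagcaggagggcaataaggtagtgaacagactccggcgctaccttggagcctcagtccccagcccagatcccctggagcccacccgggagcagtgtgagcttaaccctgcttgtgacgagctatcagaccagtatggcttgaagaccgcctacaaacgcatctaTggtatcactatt
Bglap2: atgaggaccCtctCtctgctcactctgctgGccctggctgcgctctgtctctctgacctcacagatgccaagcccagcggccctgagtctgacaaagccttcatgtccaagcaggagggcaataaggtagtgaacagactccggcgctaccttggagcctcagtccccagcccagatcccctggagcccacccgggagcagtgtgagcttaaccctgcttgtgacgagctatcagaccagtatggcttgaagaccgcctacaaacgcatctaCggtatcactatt
The next copy, Bglap3, differed from Bglap at 13 of the 285 bases and from Bglap2 at 9. The split of reads between Bglap and Bglap2 was made by the authors' estimation step and is therefore less certain than their sum.

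Runx2 is known to regulate other genes of the group through a short site, so the 200 bases before each gene's 5′ end were searched for ACCACA, the core of the RUNX site, on both strands. It was found once in each of 4 of the 9 promoters, those of Runx2 itself, Bglap, Bglap2 and Spp1, in the direction of the gene. Of 20496 protein-coding promoters of the same length, 10.3% held it. The 5′ ends were those of the deposited gene positions. GENCODE M39 places the 5′ end farther out for Sp7 (102279370 against 102275617), Spp1 (104582165 against 104582984) and Alpl (137524102 against 137523695). By that annotation these windows lay inside the gene. For Bglap2, Phospho1 and Sparc it also lay farther out, by less than the length of the window. The Bglap promoter (chr3:88291772-88291971, minus strand, GRCm39, the assembly behind mm39) is shown because osteocalcin is the classic target, with the motif in capitals.
Bglap promoter: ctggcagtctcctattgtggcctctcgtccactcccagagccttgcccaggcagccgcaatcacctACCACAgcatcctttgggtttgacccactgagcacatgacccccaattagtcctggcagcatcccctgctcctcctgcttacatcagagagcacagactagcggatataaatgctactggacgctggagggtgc
The Bglap2 promoter was 97% identical to it, with 6 of 200 bases different. The motif lay at positions -134 to -129 from the 5′ end in both osteocalcin genes, at -174 to -169 in Runx2 and at -135 to -130 in Spp1. The 4 matches, each with 10 bases on either side, are given so that their surroundings can be compared.
Runx2: ggaaggccttACCACAagccttttgt
Bglap: gcaatcacctACCACAgcatcctttg
Bglap2: gcaatcaccaACCACAgcatcctttg
Spp1: tttttttttaACCACAaaaccagagg
A match is a description of the letters and not of binding.

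The transcription factors were at moderate levels. Runx2 (chromosome 17, 44806874 to 45125684, minus strand) had 26.5, 58.0, 139 and 155 CPM in VEH replicates 1 to 4, and 38.4, 23.2, 163 and 60.2 CPM in BAY replicates 1 to 4. Runx2 was therefore above 100 CPM in VEH replicates 3 and 4 and BAY replicate 3 only, and the groups overlapped. Sp7 (chromosome 15, 102265041 to 102275617, minus strand) had 9.49, 56.2, 64.1 and 67.0 CPM in VEH-treated mice and 25.0, 21.1, 61.1 and 40.8 CPM in BAY-treated mice. The lowest Sp7 value was in VEH replicate 1, the library with the most reads, where it rested on 66 reads. Per kb of exon, Runx2 in VEH replicate 2 was 0.946 times the olfactory receptor level of that library, and in BAY replicate 4 it was 0.787 times that level. Sp7 was 2.13 and 1.24 times the level in these libraries, but 49.5 and 13.5 times it in VEH replicates 1 and 3.

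The enzymes differed from each other. Alpl (chromosome 4, 137469044 to 137523695, minus strand) had 64.3, 23.0, 199 and 191 CPM in VEH replicates 1 to 4 and 20.6, 24.4, 204 and 40.8 CPM in BAY replicates 1 to 4. It was high in the same 3 libraries as Runx2, and it stood at 0.638 times the olfactory receptor level in VEH replicate 2 and 0.908 times it in BAY replicate 4. Phospho1 (chromosome 11, 95715325 to 95722966, plus strand) was listed at 0 in VEH replicate 2 and BAY replicate 4. Its other values were 18.4, 27.3 and 22.1 CPM in VEH replicates 1, 3 and 4, and 14.6, 20.4 and 20.8 CPM in BAY replicates 1 to 3. The values above 0 lay between 14.6 and 27.3 CPM and did not separate the groups. In VEH replicate 4 and BAY replicates 1, 2 and 3 they were 0.675, 0.915, 1.44 and 1.45 times the olfactory receptor level, and thus close to it or below it. In VEH replicates 1 and 3 they were 60.2 and 3.59 times that level. The gene overlaps Zfp652 on the same strand and Abi3 and Gm38958 on the opposite strand, and the strand setting of the cortical bone counts is not given in the sources used here, so its reads cannot be fully told apart from theirs. The same limit holds for Runx2 (Gm55647 on the same strand; Supt3, Runx2os1 and Runx2os2 on the opposite strand), Alpl (Gm63526, same strand) and Spp1 (Gm42793, same strand).

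The matrix genes had the highest mean CPM of the group, before scaling for exon length. Ibsp (chromosome 5, 104447037 to 104459335, plus strand) had 361.5, 42.3, 962 and 677 CPM in VEH replicates 1 to 4 and 55.4, 64.1, 747 and 152.6 CPM in BAY replicates 1 to 4. Spp1, its neighbour on chromosome 5 (104582984 to 104588916, plus strand), had 259, 56.2, 1254 and 656 CPM in VEH-treated mice and 41.1, 62.0, 1070 and 129 CPM in BAY-treated mice. Sparc (chromosome 11, 55285326 to 55314009, minus strand) had 494.5, 126, 1509 and 1745 CPM and 157, 138, 1480 and 241 CPM, respectively. In each of these genes BAY replicate 3 lay among the high VEH libraries and VEH replicate 2 lay among the low BAY libraries. The highest library exceeded the lowest 22.7-fold for Ibsp, 30.5-fold for Spp1 and 13.8-fold for Sparc. All 3 genes stood above the olfactory receptor level in every library, by at least 2.95 times for Ibsp, 2.85 times for Spp1 and 4.26 times for Sparc.

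The osteocalcin genes had a wide range. Bglap had 42.0, 4.60, 259 and 202 CPM in VEH replicates 1 to 4 and 17.1, 16.5, 172 and 14.6 CPM in BAY replicates 1 to 4. Bglap2 had 21.2, 4.60, 133 and 146 CPM in VEH-treated mice and 7.01, 2.95, 86.0 and 11.2 CPM in BAY-treated mice. The highest library exceeded the lowest 56.2-fold for Bglap and 49.4-fold for Bglap2, and in VEH replicate 2 each rested on 5 reads, at 1.07 (Bglap) and 1.26 (Bglap2) times the olfactory receptor level. Without that library, left out after seeing the data, the range was 17.7-fold for Bglap and still 49.4-fold for Bglap2. Among BAY libraries, 3 of 4 held 14.6 to 17.1 CPM of Bglap, below 3 of the 4 VEH libraries. Summed, the pair had 203 ± 195 CPM in VEH-treated mice and 81.8 ± 117 CPM in BAY-treated mice (SD, n = 4 each), a log2 difference of -1.17 (exact permutation P = 0.457, two-sided). The ratio of Bglap2 to Bglap was 0.684 ± 0.233 in VEH-treated and 0.463 ± 0.241 in BAY-treated mice (exact permutation P = 0.229). Bglap3 followed another order of libraries. It was highest in BAY replicate 4 (20.4 CPM) and VEH replicate 2 (15.7 CPM), where Bglap and Bglap2 were low, and per kb it lay under the olfactory receptor level in every library except VEH replicate 1.

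**Figure D2:**
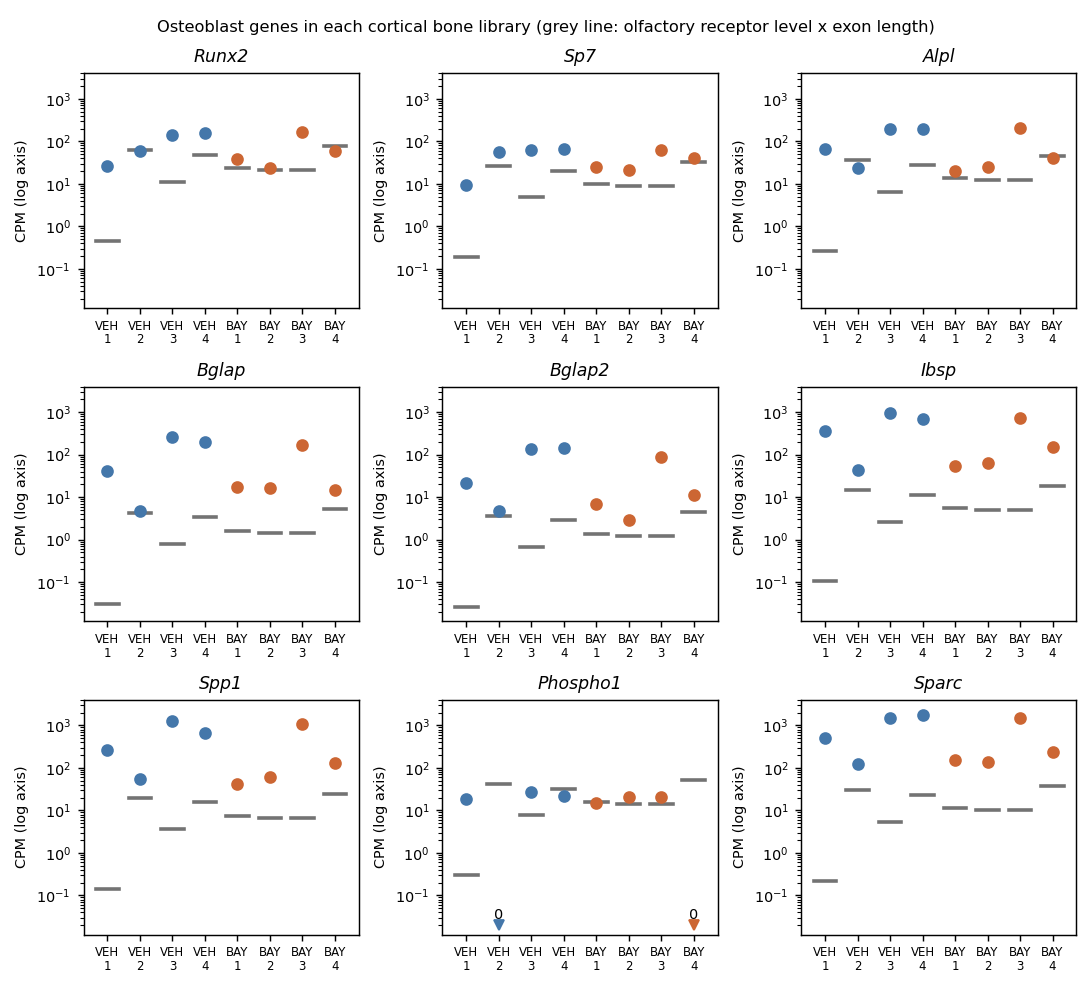
CPM of each gene (log axis) in the 4 VEH (blue) and 4 BAY (orange) cortical bone libraries, with grey lines at the olfactory receptor level of the library times the exon length of the gene. VEH replicates 3 and 4 and BAY replicate 3 held the 3 highest values of each gene, and the 2 zeros of Phospho1 are drawn as triangles.

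The same libraries were high for all genes. VEH replicate 3, VEH replicate 4 and BAY replicate 3 held the 3 highest values of 9 of the 9 genes, and the summed CPM of the 9 genes was 3862 to 4546 in them against 371 to 1297 in the other 5. Since the libraries fall into these sets, and neither holds 6 libraries, no correlation between the 9 genes is given and their relation was not tested. Of 72 values (9 genes in 8 libraries), 16 were under 2 times the olfactory receptor level of their library. The number of genes at 2 or more times that level was 9 of 9 in VEH replicates 1 and 3, but 4 of 9 in VEH replicate 2 and 5 of 9 in BAY replicate 4. In bulk tissue, fewer osteoblasts, less RNA per osteoblast and a larger share of RNA from other sources cannot be told apart.

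Levels were compared between genes per kb of exon. In VEH-treated mice, Ibsp had 247 ± 192 CPM per kb, Sparc 227 ± 183, Bglap 205 ± 199, Spp1 196 ± 186 and Bglap2 145 ± 140 (SD, n = 4 each). Then came Alpl with 22.9 ± 17.1, Sp7 with 13.0 ± 7.08 and Runx2 with 10.7 ± 7.05 CPM per kb, and Phospho1 had 0 to 4.51. Neighbours in this order overlapped within 1 SD, but the SD holds the spread that genes share between libraries. Within libraries, Bglap2 was above Alpl in 8 of 8, Sparc above Bglap and Spp1 above Bglap2 in 7 of 8 each, and the other neighbours kept this order in 3 to 6 of 8. In BAY-treated mice, Ibsp had 123 ± 160, Sparc 118 ± 153, Spp1 115 ± 175, Bglap 89.0 ± 126 and Bglap2 51.0 ± 75.5 CPM per kb, followed by Alpl (14.0 ± 17.0), Sp7 (9.76 ± 4.79) and Runx2 (8.07 ± 7.16).

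Relative to type I collagen the matrix genes varied much less. Per 100 CPM of Col1a1 and Col1a2 together, Ibsp had 4.06 ± 1.02 in VEH-treated and 4.92 ± 2.40 in BAY-treated mice, and Sparc had 8.15 ± 1.79 and 9.74 ± 2.49 (SD, n = 4 each). For Spp1 the ratio was 4.22 ± 0.782 in VEH-treated and 4.78 ± 2.05 in BAY-treated mice. Bglap had 0.765 ± 0.314 and 0.939 ± 0.120, Bglap2 had 0.489 ± 0.178 and 0.414 ± 0.174, and Alpl had 1.15 ± 0.494 and 1.52 ± 0.550 per 100 CPM. Across the 8 libraries the highest ratio exceeded the lowest by 2.20-fold for Sparc to 3.69-fold for Bglap2 among these 6 genes. For the transcription factors it did so by 11.7-fold (Runx2) and 31.6-fold (Sp7). The high ratios were 4.75 for Runx2 and 4.60 for Sp7 in VEH replicate 2, against 0.408 and 0.146 in VEH replicate 1, the libraries with the second highest and the lowest olfactory receptor level. The part of that level in the ratios was not tested.

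**Figure D3:**
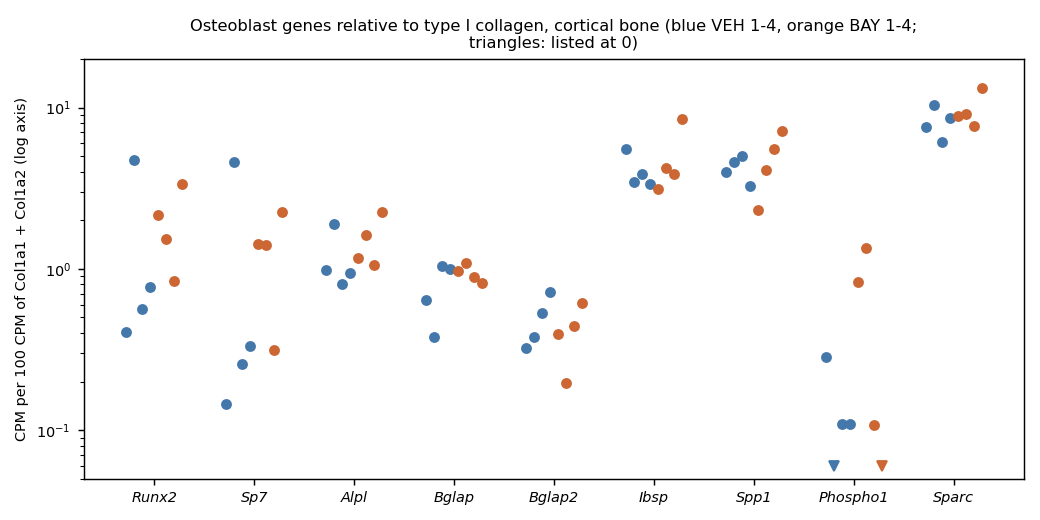
CPM of each gene per 100 CPM of Col1a1 and Col1a2 (log axis) in cortical bone, with VEH replicates 1 to 4 (blue) and BAY replicates 1 to 4 (orange) from left to right. The 6 genes Alpl, Bglap, Bglap2, Ibsp, Spp1 and Sparc spanned at most 3.69-fold, whereas Runx2 and Sp7 spanned 11.7-fold and 31.6-fold; triangles mark Phospho1 values listed at 0.

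No gene of the 9 passed the test between BAY-treated and VEH-treated mice in cortical bone, although every estimate was lower with BAY. The limma fit on the deposited values called genes with a fold change of 2 or more and a P value, before adjustment, under 0.05. These are the thresholds of the study, whose own fit was limma-voom. They called 0.64% of the 38933 genes here, and 3.68% (1433 genes, 1431 of them higher) with limma-voom on the recovered reads, with 0 of the 9 genes called by that fit as well. It called 0 of the 9, and 0 of the 9 had an unadjusted P value under 0.05. The log2 difference was lower in 9 of 9 genes, against 19.1% of all genes, and its median was -0.96, against 0.84 over all genes. The largest was that of Bglap2, at -1.64 ± 1.21 (SE; 95% interval -4.25 to 0.97; limma adjusted P = 0.887). Next were Spp1 (-1.27 ± 1.08), Ibsp (-1.16 ± 1.02), Sparc (-1.10 ± 0.97), Bglap (-0.96 ± 1.19) and Alpl (-0.94 ± 0.86). The estimates of the transcription factors were -0.48 ± 0.74 for Runx2 (95% interval -2.08 to 1.12) and -0.20 ± 0.72 for Sp7 (95% interval -1.75 to 1.35). These intervals include a 2-fold fall and a 2-fold rise as well as no change. For Phospho1 the estimate of -0.21 ± 4.75 carries the zeros and is not informative. In exact permutation tests of single genes, where the smallest possible P value is 0.0286, P ranged from 0.286 (Bglap2) to 0.771 (Sp7), two-sided, and the groups overlapped for each gene.

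Centring each library on its own median, taken over genes averaging 1 CPM or more, shifted every gene further down. The median of the 9 differences became -1.81, against -0.01 over all genes, and 9 of 9 were lower, against 50.5% of all genes. The rule called 1.14% of all genes on this scale and 0 of the 9, and again 0 had an unadjusted P value under 0.05. The centred differences ran from -2.49 ± 1.54 for Bglap2 to -1.05 ± 0.58 for Sp7, Phospho1 left aside, with limma adjusted P = 0.782 for these 8 genes. Exact permutation P ranged from 0.143 (Sp7) to 0.6 (Phospho1). The column medians that were subtracted ran from -0.48 in VEH replicate 1 to 3.97 in VEH replicate 2 and 4.10 in BAY replicate 4 on the log2 scale, in the same order as the olfactory receptor level at both ends.

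Setting type I collagen as the base adds the same amount to the difference of every gene, and so fixes how all signs move together. With each library centred on Col1a1 and Col1a2, a scale chosen after seeing the data, 8 of 9 genes were higher and Bglap2 was lower (-0.29 ± 1.64), with a median of 0.39, and 0 of 9 were called, against 2.35% of all genes. On that scale the median of all genes was 2.19, so that the 9 genes stayed as far below it as on the deposited scale. The estimates were 1.15 ± 1.50 for Sp7 and 0.87 ± 1.41 for Runx2, and 0.08 ± 1.33 for Spp1 to 0.41 ± 1.41 for Alpl among the other 5 genes apart from Phospho1. Exact permutation P ranged from 0.257 (Alpl) to 0.857 (Spp1).

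**Figure D4:**
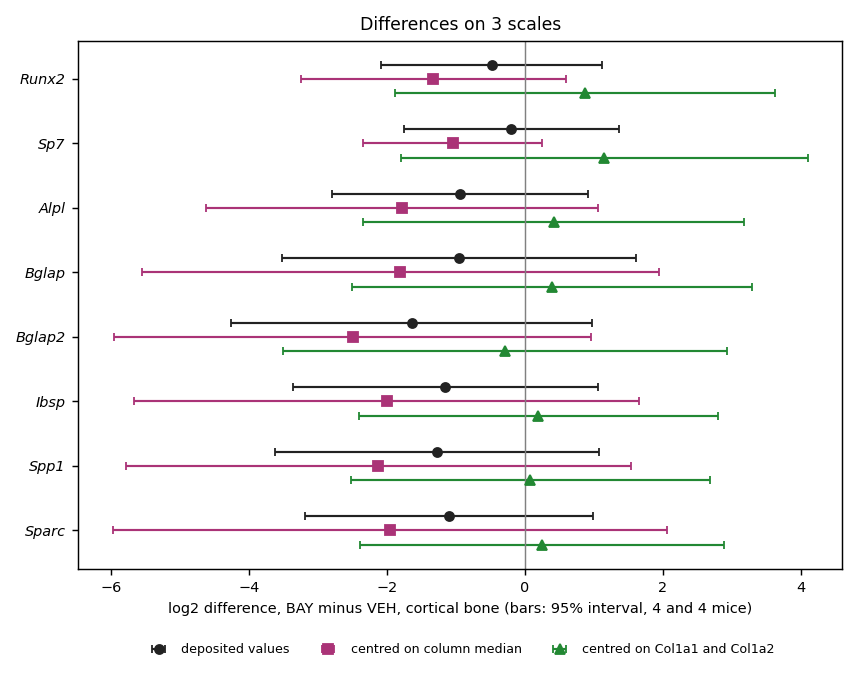
Log2 difference, BAY minus VEH, in cortical bone with 95% limma intervals for 8 genes on the deposited scale (circles), centred on the column median (squares) and centred on Col1a1 and Col1a2 (triangles). Every interval includes 0, the deposited and centred estimates are below 0, and 7 of the 8 collagen-based estimates are above 0.

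Calls depended on single libraries. Without VEH replicate 2, the deposited values gave 3 called genes, Bglap (-2.16), Bglap2 (-2.64) and Ibsp (-2.12), with limma adjusted P = 0.494 each, while 2.87% of all genes were called. The centred values then gave 7 called genes, all but Phospho1 and Sparc, while 8.52% of all genes were called. Without BAY replicate 3, Bglap2 (-2.59) and Spp1 (-2.26) were called on deposited values (limma adjusted P = 0.859), while 0.655% of all genes were called. On centred values Bglap2, Runx2 and Sp7 were then called, while 1.85% of all genes were. Other library sets and a background correction were chosen after seeing the data. Leaving out VEH replicate 2 and BAY replicate 4 gave a median of -1.78 over the 9 genes, against 1.07 over all genes, with 0 of the 9 and 0.758% of all genes called. Leaving out VEH replicate 1 and BAY replicates 1 and 2, the libraries with the most muscle fibre RNA, gave a median of -0.21, against 0.27 over all genes, with 7 of 9 lower and 0 of the 9 and 0.606% of all genes called. Subtracting the olfactory receptor level from each gene gave a median of -1.12, against 0 over all genes, with 9 of 9 lower and 0 of the 9 and 0.745% of all genes called.

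No gene of the lists of other osteoblast regulators, other matrix genes and osteocyte genes was called on the deposited values. Over all cortical bone genes, the shares beside these lists and those below were 19.1% lower and 0.64% called on deposited values. On centred values they were 50.5% and 1.14%. Among 18 other osteoblast regulators, 12 were lower and 6 higher, with a median of -0.46 and 0 called. Those named here for their high CPM were Ctnnb1, the Wnt effector β-catenin (-0.45 ± 0.76), and Lrp6, a Wnt co-receptor (0.17 ± 0.55). Lrp6 had 89.3 CPM in VEH replicate 2 and 126 CPM in BAY replicate 4, its highest value. On centred values 18 of 18 were lower, and Bmp2, a bone morphogenetic protein, was called (-1.77 ± 0.77; limma adjusted P = 0.782).

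Among 20 other matrix and mineralization genes, 16 were lower and 4 higher, with a median of -0.52 and 0 called. Col1a1 had 4028, 782, 16601 and 13078 CPM in VEH replicates 1 to 4 and 1145, 942, 12881 and 1101 CPM in BAY replicates 1 to 4, a log2 difference of -1.37 ± 1.32. Col1a2, the second chain of type I collagen, had -1.33 ± 1.17, and Bgn, the proteoglycan biglycan, had -0.94 ± 0.76. All 3 were highest in VEH replicates 3 and 4 and BAY replicate 3. On centred values 19 of the 20 were lower and 0 were called.

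The 7 osteocyte genes, which mark osteoblasts embedded in bone, had a median of -1.17 with 4 lower, 3 higher and 0 called, and on centred values a median of -2.02 with 7 of 7 lower and 0 called. Dmp1, which regulates mineralization and phosphate, had 670 ± 952 CPM in VEH-treated and 244 ± 381 CPM in BAY-treated mice. Sost, an inhibitor of Wnt signalling, had 290 ± 410 and 99.3 ± 155 CPM, and Mepe, a matrix phosphoglycoprotein, had 161 ± 234 and 72.7 ± 117 CPM (SD, n = 4 each). Dmp1 had 2077 CPM in VEH replicate 3 and 423 CPM in VEH replicate 4, where Ibsp had 962 and 677 CPM.

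Markers of other cell types also differed between libraries. The 8 osteoclast genes summed to 157 to 1072 CPM in VEH-treated and 107 to 1102 CPM in BAY-treated mice, with 5 lower and a median of -0.50. Of the 10 neutrophil genes 8 were lower (median -0.74; sums of 124 to 2151 and 74.7 to 1222 CPM, with 1 gene at 0 in a library), and of 9 measured erythroid genes 8 were lower (median -0.90; sums of 126 to 747 and 110 to 373 CPM, 1 gene at 0 in a library). All 12 muscle fibre genes were higher with a median of 3.42, and Myl1, a fast myosin light chain, was called (3.25 ± 1.22; limma adjusted P = 0.887); 3 of the 12 were at 0 in some library. The medians were 0.09 for 7 adipocyte genes, -0.25 for 8 cartilage and tendon genes and 0.19 for 6 endothelial genes, with 0 called in each. On centred values, osteoclast genes (8 of 8), endothelial genes (6 of 6) and 6 of 7 adipocyte genes were lower, with medians of -1.35, -0.66 and -0.76, whereas 10 of 12 muscle fibre genes stayed higher, with a median of 2.57. The centred medians were -1.59 for neutrophil, -1.75 for erythroid and -1.10 for cartilage and tendon genes, and 0 genes were called in each of these lists. Adipocyte genes summed to 127 to 268 CPM in VEH-treated and 214 to 247 CPM in BAY-treated mice, cartilage and tendon genes to 249 to 839 and 217 to 593 CPM (2 genes at 0 in a library), and endothelial genes to 143 to 331 and 205 to 357 CPM. The part of these other cells in the differences of the 9 genes was not tested.

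The genes whose log2 CPM followed the mean of the 9 most closely over the 8 libraries were sought among 16975 genes averaging 10 CPM or more. They were Ctnnb1, Chd4, P4hb, H3f3b, Sfpq, Myh9, Cst3, Calu, C4b and Aplp2, with Pearson r from 0.990 to 0.996, as a description without a test, since the libraries share their depth and composition. The zeros of Phospho1 weigh on this mean. With Phospho1 left out, a choice made after seeing the data, the 10 most alike genes were Pdia4, Tnc, Olfml2a, Chd3, Srsf2, Rrbp1, Pqbp1, Anapc2, Acp5 and Map4k4 (r from 0.987 to 0.995), and 0 genes were shared with the first 10.

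In TA muscle the 5 measured genes were lower in level than in bone, except Phospho1, although the tables were normalized separately. Runx2 had 1.18 ± 0.287 CPM in VEH-treated and 1.39 ± 0.404 CPM in BAY-treated mice, on 6 to 15 reads, and Alpl had 9.48 ± 0.619 and 9.26 ± 1.60 CPM (SD, n = 4 each). Spp1 had 0.466, 1.11, 1.30 and 0.477 CPM in VEH-treated and 0.138, 1.96, 0.903 and 0.140 CPM in BAY-treated mice, of which the lowest 2 rested on 1 read. Phospho1 had 46.2, 63.5, 63.0 and 38.8 CPM in VEH-treated and 54.8, 60.5, 61.4 and 68.9 CPM in BAY-treated mice, above each of its cortical bone values. Sparc had 29.9, 37.1, 75.6 and 27.2 CPM in VEH-treated and 30.8, 25.1, 37.8 and 30.7 CPM in BAY-treated mice. The high Sparc value belonged to VEH replicate 3, whose column carries a word for replacement and which also had the most Col1a1 (86.4 CPM against 12.3 to 25.1 CPM in the other 7 libraries).

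**Figure D5:**
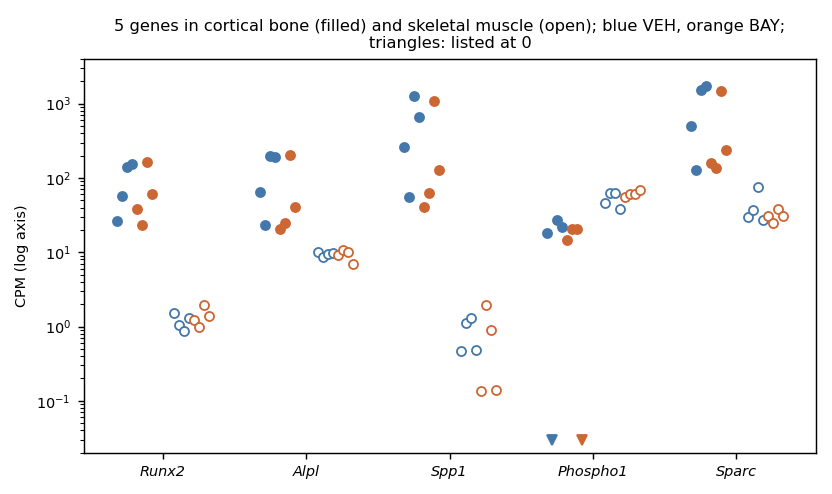
CPM (log axis) of the 5 genes found in both tables, in cortical bone (filled) and TA muscle (open), for VEH-treated (blue) and BAY-treated (orange) mice. Runx2, Alpl, Spp1 and Sparc were higher in each cortical bone library than in any TA library, Phospho1 was higher in TA muscle at 38.8 to 68.9 CPM, and triangles mark Phospho1 values listed at 0 in cortical bone.

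No gene of the 5 passed the test in TA muscle. The rule called 2.43% of the 21011 genes and 0 of the 5, of which 0 had an unadjusted P value under 0.05, and the median log2 difference was -0.05, against 0.06 over all genes. The intervals were narrower than in bone. Alpl differed by -0.05 ± 0.17 (95% interval -0.42 to 0.32), Phospho1 by 0.24 ± 0.16 (-0.10 to 0.59), Sparc by -0.34 ± 0.26 (-0.89 to 0.22) and Runx2 by 0.22 ± 0.44 (-0.72 to 1.16), whereas Spp1 differed by -0.81 ± 0.93. Without VEH replicate 3 the Sparc difference was -0.02. Limma adjusted P ranged from 0.65 to 0.956. Exact permutation P for single genes was 0.314 (Phospho1) to 0.83 (Alpl). The BAY difference in bone was not detectably different from that in muscle for the 5 genes (exact permutation over 4900 assignments, which treats the bone and TA libraries as separate since the sources used here do not tie them to the same mice, P = 0.395 for Alpl to 0.793 for Spp1). Of the lists, Postn, the matricellular protein periostin, was called among 19 other matrix genes (-1.86 ± 0.79; limma adjusted P = 0.475), and Plin1, which coats lipid droplets, among 7 adipocyte genes (-2.13 ± 0.92; limma adjusted P = 0.48). Lower were 14 of the 19 other matrix genes (median -0.366), 6 of the 7 adipocyte genes (-2) and 3 of 5 osteoclast genes (-2.37). The lists with a median above 0 were muscle fibre genes (0.0849, 9 of 12 higher) and endothelial genes (0.0477, 4 of 6 higher).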

How the data were processed

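Per the labels, cortical bone and TA muscle of BAY-treated and VEH-treated mice were sequenced, 4 libraries per group, 1 per mouse. The authors trimmed reads, aligned them with STAR (version 2.7.8a) to mm39, counted Ensembl release 104 genes by Partek's E/M method, and deposited log2 values of CPM with an offset added (0.0001 in cortical bone, 0.0004 in skeletal muscle, from the lowest value). CPM and reads were recovered from the deposited log2 values; 81.3% to 88.4% of values up to 50 reads were whole to within 0.02. Exon lengths came from GENCODE M39 (98.9% and 99.4% of genes matched), and sequences from GRCm39.

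Each table was fitted whole with limma (version 3.58.1; lmFit, eBayes with trend, two-sided, Benjamini-Hochberg adjustment) in R (version 4.3.3), tested on simulated data. Single genes were also compared by exact permutation of the 8 libraries (70 assignments). The 9 genes and all lists were chosen with earlier results of these data known. Named beside the 9 genes were the called genes of each list, the 3 with the highest mean CPM of the bone lists and the 10 most alike genes. A single result under this rule is not reported here. Figures and other steps used Python (version 3.11.15) with scipy (version 1.17.1). Alternatives were pseudocounts of 1 and 0.1 CPM, a 1 CPM filter on the mean, other centrings, quantile normalization, no trend, array weights, voom on recovered reads, a replicate block and each mouse left out. Labels give separate mice but no batches. BAY replicates 1 and 2 of cortical bone, the most alike pair within a group, were counted as separate mice.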

Additional observations from a re-analysis of the deposited data

Results flagged for a closer look

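Of 28 groups of 4 values tested, 4 held a value farther from the others than Dixon's 95% critical ratio for 4 values, and chance flags about 5% of groups. The ratio is the gap to the nearest value over the range, on the deposited log2 scale. In cortical bone of VEH-treated mice, Sp7 in replicate 1 (9.49 CPM against 56.2 to 67.0 CPM in the others) had a ratio of 0.91, and of 0.81 on the CPM scale, where it would not pass. Bglap in BAY replicate 3 (172 CPM against 14.6 to 17.1 CPM) had a ratio of 0.936, and of 0.98 on the CPM scale. Phospho1, listed at 0, had ratios of 0.969 in VEH replicate 2 and 0.971 in BAY replicate 4, which rest on the offset that puts a 0 at -13.29 on the log2 scale and were 0.68 and 0.7 on the CPM scale, where neither would pass, while the other values were 18.4 to 27.3 and 14.6 to 20.8 CPM. These 2 libraries had the fewest reads, and 3 reads in them were worth 2.76 and 3.22 CPM, below the Phospho1 values listed in the other libraries. Less the olfactory receptor level times exon length, Phospho1 stood at -42 CPM in VEH replicate 2 and -52.4 CPM in BAY replicate 4. The cause of the zeros was not tested.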

How the results depend on the processing

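The library set and the base of scaling limit the cortical bone results, and 930306 reads in the shallowest library limit low genes. The number of called genes among the 9 was 0 on deposited values and 1 with array weights (Phospho1, which turned to 9.75; 2.31% of all genes called) and 1 with the replicate block (Bglap2, -1.64; 0.783%). With a mouse left out it was 0 to 3 (0.295% to 2.87% of all genes). On centred values it was 0 to 7 with a mouse left out (0.462% to 8.52%) and 2 under the replicate block (Bglap2 and Sp7; 1.05%). The median of the 9 differences was 0.39 when centred on Col1a1 and Col1a2, chosen after seeing the data, which shifts every gene alike (median of all genes 2.19). With a mouse left out it was -2.12 to -0.54, and -3.53 to -1.02 on centred values. In skeletal muscle 0 genes were called under every alternative run, and with a mouse left out the median was -0.12 to 0.08.

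Of 207 alternative values of single genes in cortical bone, 179 kept direction and call, 22 reversed and 6 became called in the same direction; Phospho1 with array weights, among those reversed, was called too. In skeletal muscle 88 of 89 kept both. Under the common shift of centring on Col1a1 and Col1a2, Runx2 (0.87), Sp7 (1.15), Alpl (0.41), Bglap (0.39), Ibsp (0.19), Spp1 (0.078), Phospho1 (1.14) and Sparc (0.25) reversed. Centred on the other matrix genes, Sp7 (0.26) and Phospho1 (0.24) did, as did Bglap with array weights (0.37), Sp7 with voom on recovered reads (0.16), and Ibsp (0.16) and Spp1 (0.050) without VEH 1, BAY 1 and BAY 2. With 1 mouse left out, Sp7 ran from -0.88 to 0.062, above 0 without VEH replicate 3, VEH replicate 4 or BAY replicate 2. Phospho1 ran from -4.65 to 4.16, and Alpl in muscle turned to 0.077 without BAY replicate 4. The cause was not tested.

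Replicate numbers belong to different mice, and deviations of same-numbered cortical bone libraries correlated by -0.11 to 0.19 over 35016 genes, so the numbers were not taken as pairs. Over deposited-scale settings, the number of all genes called in cortical bone ran from 82 (filter at 1 CPM) to 1433 (voom), against 249, and on centred values from 180 (without BAY replicate 1) to 3317 (without VEH replicate 2), against 443; in skeletal muscle it ran from 52 (pseudocount of 1 CPM) to 700 (voom), against 510. Correlations between the 9 genes and their alternatives were not run because the libraries fall into separate sets.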
